A study of Mus musculus with 2 samples.

Results

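Ly49-expressing Cd8-negative T cells were examined in 2 mouse pancreatic tumours profiled by single-cell RNA sequencing. A cell was a member when it held at least 1 unique molecular identifier (UMI) of Cd3e, Cd3d or Cd3g, at least 2 UMIs of the Ly49 genes Klra1, Klra6 and Klra7 together, no UMI of Cd8a, Cd8b1, Cd4, Foxp3 or Ncr1, under 2 UMIs of Il17a, Il23r and Cd163l1, at most 1 of Cd79a, and under 0.4% of its UMIs from S100a8 and S100a9. This rule met 149 of 24160 kept cells. Because the members were chosen by the measured values of those genes, these are given as a description with no test. The cells are called Ly49+ Cd8- T cells here.

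The study asked how knockdown of Zeb1 in tumour cells relates to the immune cells of the tumour. KPC cells, a mouse pancreatic cancer line derived from genetically engineered mice, were injected into the pancreas carrying a control vector (KPC-shV) or an shRNA that targets Zeb1 (KPC-shZEB1). According to the study's text the mice received gemcitabine, an agent that the sample labels leave out. The methods name C57BL/6J, BABL/c and NSG mice, all a few weeks old, as hosts of orthotopic tumours. The paper takes the sequenced tumours from an experiment that it describes as done in immunocompetent mice. The name of the strain that carried these tumours is not given in the sources used here. Whole tumours were dissociated without a sort, and each group was 1 tumour in 1 library, so mouse, tumour, library and group cannot be told apart. Kept cells are those with 500 genes or more, between 1000 and 60000 UMIs, and mitochondrial UMIs of 15% or less.

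Ly49 receptors are lectin-like receptors on the surface of mouse NK cells that bind MHC class I molecules, and most carry an inhibitory motif. The Klra genes lie in a cluster on chromosome 6 and their number differs between mouse strains. A cell usually transcribes some of the family and leaves other members silent. T cells can carry Ly49 receptors as well, among them NKT cells, some gamma-delta T cells and memory-like or regulatory CD8 T cells. Ikzf2 encodes Helios, an Ikaros-family factor of regulatory T cells, which is also described in Ly49-bearing CD8 T cells with a regulatory role.

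Promoter sequences of the Ly49 genes used by the rule are shown because transcription from this cluster defines the population. They come from RefSeq (GRCm38.p6), run 5′ to 3′ on the minus strand of chromosome 6, and cover 250 bases before and 50 after a RefSeq transcript start. Capitals mark CTTTGA, a core motif of the TCF/LEF factors, or TGTGGT, a core motif of Runx factors, searched on both strands (reverse complements TCAAAG and ACCACA).
Klra1, chr6:130386825-130387124: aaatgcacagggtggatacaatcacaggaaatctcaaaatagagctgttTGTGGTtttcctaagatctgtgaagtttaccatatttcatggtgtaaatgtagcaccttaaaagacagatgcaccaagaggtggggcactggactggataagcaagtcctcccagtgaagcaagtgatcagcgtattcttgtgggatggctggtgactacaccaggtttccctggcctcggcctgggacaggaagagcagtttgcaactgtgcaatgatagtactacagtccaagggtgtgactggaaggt
Klra6, chr6:130026905-130027204: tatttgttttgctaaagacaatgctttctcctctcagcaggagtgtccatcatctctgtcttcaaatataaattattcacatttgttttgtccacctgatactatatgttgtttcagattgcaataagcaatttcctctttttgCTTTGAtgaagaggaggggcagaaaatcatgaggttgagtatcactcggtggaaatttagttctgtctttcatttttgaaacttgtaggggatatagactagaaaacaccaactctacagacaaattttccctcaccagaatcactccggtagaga
Klra7, chr6:130233273-130233572: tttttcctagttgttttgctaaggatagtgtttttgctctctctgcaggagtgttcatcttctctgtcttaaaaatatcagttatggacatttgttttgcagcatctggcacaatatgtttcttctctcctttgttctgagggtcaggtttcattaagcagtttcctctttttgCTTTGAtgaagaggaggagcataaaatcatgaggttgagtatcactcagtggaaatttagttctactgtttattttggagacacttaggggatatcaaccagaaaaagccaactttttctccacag
The Klra6 and Klra7 windows each held 1 TCF/LEF match and no Runx match, and the Klra1 window held 1 Runx match and no TCF/LEF match. A second Klra7 window of the table, chr6:130231638-130231937, also held 1 TCF/LEF match. Of 32851 promoter windows of this length, 16% held the TCF/LEF motif and 16.8% the Runx motif. A match describes letters only and is no evidence of binding.

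In the GRCm38 annotation, Klra1 (ENSMUSG00000079853) is a protein-coding gene on the minus strand from 130363917 to 130386874, Klra6 (ENSMUSG00000061769) runs from 130013033 to 130026954 and Klra7 (ENSMUSG00000067599) from 130218605 to 130233322. They encode the inhibitory receptors Ly49A, Ly49F and Ly49G. Their longest annotated transcripts are alike in sequence. Over the aligned bases Klra1 and Klra7 shared 88.7%, Klra1 and Klra6 81.7%, and Klra6 and Klra7 81.5%. In the last 300 bases, where 3′ libraries read, identity was 82.2%, 71.9% and 77%. Reads may still be split between members of this family, so levels of single Ly49 genes are uncertain.

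Most Ly49+ Cd8- T cells held UMIs of 1 or 2 of the rule's Ly49 genes, and Klra1 together with Klra7 was the commonest pair. In the library labelled KPC-shV, 21 of 41 cells (51.2%) held 1 of the genes, 18 held 2 and 2 held all 3. In the library labelled KPC-shZEB1, 43 of 108 cells (39.8%) held 1, 53 held 2 and 12 held all 3. Klra1 with Klra7 and without Klra6 made up 12 cells (29.3%) and 35 cells (32.4%), whereas Klra6 with Klra1 alone made up 1 and 5. Klra7 was found in 68.3% and 74.1% of the cells, Klra1 in 61% and 63%, and Klra6 in 24.4% and 34.3%. A cell with 2 to 3 Ly49 UMIs cannot show all that it transcribes, so the absence of a gene from a single cell was not detectable at this depth.

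Levels are given as UMIs summed over the cells of a population per 1000000 UMIs of that population (CPM), with KPC-shV first and KPC-shZEB1 second. Parentheses hold exact 95% intervals, and all intervals cover counting error only. Klra7 reached 424 CPM (351–509) and 340 CPM (301–383), Klra1 289 CPM (229–360) and 241 CPM (208–278), and Klra6 102 CPM (68.1–148) and 105 CPM (84.1–131). Those heights follow from the rule. NK cells, taken as cells with an Ncr1 UMI and no Cd3 UMI under the same limits (51 and 146 cells), held Klra7 at 53.1 and 63.3 CPM and Klra1 at 0 and 16.9 CPM.

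The Ly49 genes that the rule did not use showed another order in the 2 populations. Klra8, which encodes the activating receptor Ly49H in strains that carry it, stood at 22 and 3.76 CPM in Ly49+ Cd8- T cells and at 139.5 and 109 CPM in NK cells. Klra4, the gene of the activating receptor Ly49D, stood at 18.3 and 5.02 CPM against 118 and 98.8 CPM. Both were lower in the T cells than in the NK cells of each library. Klra9 stood at 43.9 and 28.9 CPM against 39.8 and 50.6 CPM, without one direction in both libraries, and Klra3 lay at 7.32 and 22.6 CPM against 29.2 and 27.1 CPM. Klra5 was the single unused family member with more in the T cells of both libraries, at 51.2 and 25.1 CPM against 27.9 and 6.03 CPM, and 4 and 3 cells held all of it. Because the family shares sequence with the rule's genes, these levels were not tested.

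**Figure D1:**
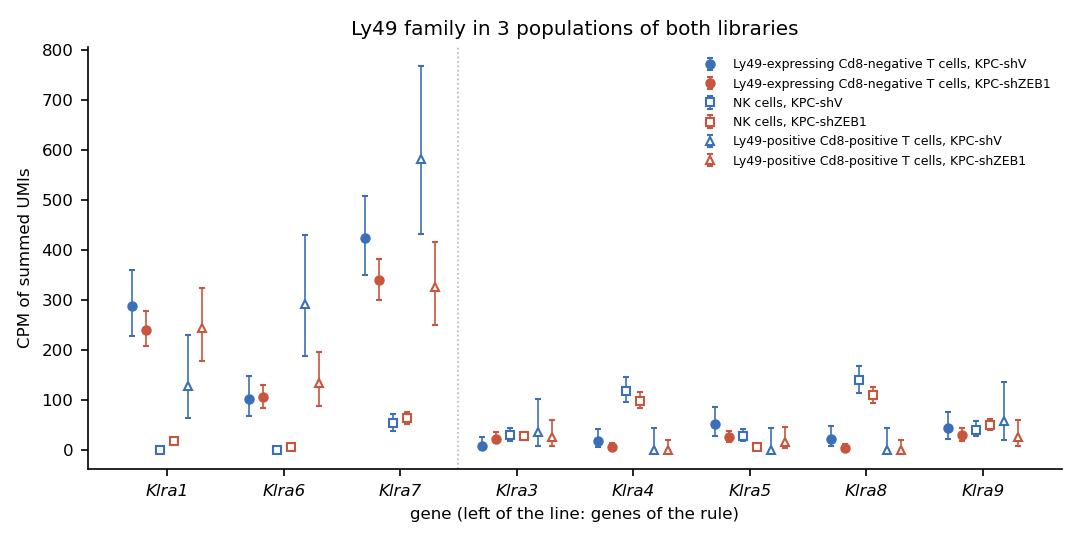
Levels of Ly49 genes as CPM of summed UMIs with exact 95% Poisson intervals, in Ly49+ Cd8- T cells (filled circles), NK cells (open squares) and Ly49-positive Cd8-positive T cells (open triangles) of the libraries labelled KPC-shV (blue) and KPC-shZEB1 (red). Genes left of the dotted line were used by the rule and are high in the T cells for that reason, while Klra4 and Klra8 are higher in the NK cells of both libraries.

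The threshold of 2 Ly49 UMIs separated unlike cells, as seen in the level of Ikzf2 among cells that met every other criterion. With no Ly49 UMI, 483 and 1385 such cells held Ikzf2 at 86.9 and 110 CPM. With 1 UMI, 13 and 91 cells held it at 472 and 351 CPM. Just inside the threshold, with 2 UMIs, 10 and 18 cells held it at 3115 and 1874 CPM, and 25 and 64 cells with 4 or more UMIs held it at 2857 and 2976 CPM. Cells outside the threshold were deeper, with median UMI counts of 18203 and 14828 at no Ly49 UMI against 5849 and 5399 at 4 or more. Only 25.9% and 34.4% of the cells with no Ly49 UMI held 2 or more Cd3 UMIs, against 92% and 95.3% of those with 4 or more. Before the other criteria, 71 and 207 kept cells held at least 2 Ly49 UMIs, and 13 and 50 of them lacked Cd3 UMIs. Of the 58 and 157 with Cd3, the criteria on Cd8 and Ncr1 removed most of the rest, 11 and 21 cells with Cd8 and 7 and 28 with Ncr1.

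Most of the cells held UMIs of T cell receptor chains, and their gamma and delta chain markers were found in a minority. An alpha or beta chain constant gene (Trac, Trbc1 or Trbc2) was detected in 40 of 41 cells (97.6%, 87.1–99.9) and in 100 of 108 cells (92.6%, 85.9–96.7). NK cells held one of these genes in 62.75% and 73.97%. Trac, the alpha chain constant gene, was detected in 65.85% and 54.63% of the Ly49+ Cd8- T cells. It stood at 234 and 134 CPM, against 2.66 and 9.04 CPM in NK cells. Both an alpha and a beta chain were detected in 60.98% and 53.7% of the Ly49+ Cd8- T cells, against 1.96% and 6.85% of NK cells. Beta chain UMIs separated the populations less, as 60.8% and 71.9% of NK cells held one, where B cells, which should lack it, held one in 2.92% and 10.9%. Median depth was 5829 and 5382.5 UMIs in Ly49+ Cd8- T cells, 7722 and 6349 in NK cells and 4038 and 3614 in B cells.

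Trdc, the delta chain constant gene given as a marker of these cells, was detected in 5 of 41 cells (12.2%, 4.08–26.2) and 13 of 108 (12%, 6.57–19.7). Among T cells with at least 2 UMIs of Il17a, Il23r and Cd163l1 the share was 40.7% and 34%, and in B cells it was 0 of 274 (a count of 0 allows up to 1.09%) and 0.532%. In NK cells it was 0 of 51 and 10.3%. All 5 Trdc-positive cells of the library labelled KPC-shV and 11 of the 13 in the other library also held an alpha or beta chain UMI. Tcrg-C4, a gamma chain constant gene, was detected in 19.5% and 18.5% of the cells at 40.3 and 30.1 CPM, and any gamma chain constant gene in 36.6% and 32.4%. T cells with interleukin-17 genes held an alpha or beta chain UMI in 92.6% and 88.7%, and both chains in 37% and 37.7%. Those cells were chosen without regard to receptor chains and may include cells with alpha and beta receptors. They therefore cannot show whether alpha and beta chain UMIs set gamma-delta cells apart. Cells with alpha and beta receptors can also carry gamma transcripts. The markers Trdc and Tcrg-C4 were thus not detected in most of the cells, no receptor type is assigned, and the population is named by its rule. Gamma and delta variable segments gave few UMIs, with 7 and 14 of Trgv2 and 4 and 8 of Tcrg-V1.

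Ly6c2, the third marker given, encodes a Ly6C surface protein of memory-like T cells and monocytes. It stood at 454 CPM (377–541) and 442 CPM (397–490) and was found in 70.7% and 76.9% of the cells. T cells with Cd8 UMIs and at least 2 Ly49 UMIs held 385 and 191 CPM, those with Cd8 and no Ly49 UMI 173 and 58.3 CPM, NK cells 9.3 and 38.6 CPM, and Cd4 T cells 3.72 and 10.7 CPM. By value it was highest in the Ly49+ Cd8- T cells of both libraries, and its neighbour in that order was the Ly49-positive Cd8-positive population.

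Against NK cells, Ly49+ Cd8- T cells carried more transcripts of T cell signalling and T cell transcription factors and fewer of granzyme and perforin genes. Populations were compared on UMIs summed per library with edgeR's quasi-likelihood test, with the library as a term and Benjamini-Hochberg adjustment over all genes tested. Each comparison rests on 2 libraries and 1 residual degree of freedom per gene, and the libraries are also the 2 groups of the study. The prior degrees of freedom, the weight given to the spread shared over genes, were infinite against NK cells and against other T cells. They were 10.61 against lineage-gated T cells. Very small p-values against NK cells thus rest on that shared spread and do not measure replication over tumours. Fold changes are on the log2 scale, Ly49+ Cd8- T cells minus the other population. Of 8523 genes tested, 435 (5.1%) were higher and 549 (6.44%) were lower in the T cells.

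Of the T cell and receptor chain list, 9 of 9 tested genes were higher, with a median log2 difference of 2.90 against 0.00 over all genes. Trac differed by 4.68 (SE 0.41, adjusted p = 8.7e-27) and Trbc2, a beta chain gene, stood at 483 and 484 CPM against 58.5 and 65.1 CPM. Themis, a T cell signalling protein of thymic selection, stood at 69.5 and 81.6 CPM against 2.66 and 6.63 CPM (log2 difference 3.94, SE 0.50). Bcl11b, a factor of T cell commitment, stood at 110 and 96.6 CPM against 3.98 and 11.4 CPM (3.61, SE 0.43). Grap2, an adaptor downstream of the T cell receptor, and Gramd3, which encodes a GRAM domain protein, were the other leading genes, at 395 and 284 CPM against 25.2 and 48.8 CPM and at 1522 and 1626 CPM against 114 and 254 CPM. The rule required a Cd3 UMI in one population and none in the other, so the height of the T cell list is tied to the choice of cells.

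Ikzf2 was among the genes most unlike between these populations. It stood at 2825 and 2909 CPM in Ly49+ Cd8- T cells and at 243 and 416 CPM in NK cells, a log2 difference of 3.23 (SE 0.19, adjusted p = 4.2e-60). Of 15 tested lineage factors, 6 were higher and 2 lower. Lef1, a TCF/LEF factor of naive and memory T cells, stood at 578 and 577 CPM against 74.4 and 63.9 CPM (3.15, SE 0.28). Bach2, a repressor that restrains effector differentiation, stood at 1314 and 1252 CPM against 433 and 646 CPM (1.34, SE 0.20). Tcf7, Tox and Zbtb16 were also higher, and Id2 and Zeb2, factors of NK and effector cells, were lower, with 157 and 144 CPM of Id2 against 344 and 306 CPM.

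Cytotoxic genes ran the other way for granzymes. Gzma, encoding granzyme A, stood at 117 and 28.9 CPM against 525 and 852 CPM in NK cells (log2 difference -3.46, SE 0.30, adjusted p = 8.9e-28). Gzmc was found at 0 and 25.1 CPM against 979 and 189 CPM, and Prf1, encoding perforin, at 18.3 and 17.6 CPM against 95.6 and 101 CPM. In the cytotoxicity and cytokine list 3 of 13 tested genes were lower (Gzma, Gzmb and Prf1) and 2 were higher, namely Fasl, the death ligand, and Ccl5, a T cell and NK chemokine at 1972 and 2191 CPM against 824 and 1060.0 CPM. Among 18 NK receptors and adaptors, of which 17 were tested, 3 were higher (Klrc2, Cd160 and Hcst) and 3 lower (Klrb1b, Klrb1f and Klri2). The other 11 did not pass the test in either direction.

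Of 17 tested naive, memory and traffic genes, 9 were higher and none was lower. They include Il7r, the interleukin-7 receptor, at 315 and 388 CPM against 41.2 and 109 CPM, Cd28, a costimulatory receptor, at 238 and 121 CPM against 25.2 and 30.1 CPM, and Cd27 at 91.5 and 100 CPM against 25.2 and 32.5 CPM. The immediate-early genes, Fos, Fosb, Jun and Egr1, were lower in the T cells, with Fos at 267 and 654 CPM against 1245 and 1100.0 CPM.

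Matrix and stromal genes headed the other end. Mgp, a matrix protein, stood at 32.9 and 41.4 CPM against 595 and 1060.0 CPM in NK cells, and Ptn, Cxcl14 and Plpp3 were lower too. The 3 fibroblast markers summed to 322 and 878 CPM in Ly49+ Cd8- T cells and 838 and 2118 CPM in NK cells. The 4 tumour markers summed to 293 and 952 CPM against 1884 and 992 CPM, and the 6 macrophage markers to 2795 and 3951 CPM against 4736 and 7816 CPM. The part of that RNA in the comparison was not tested. DESeq2 called 186 genes, against 984 for edgeR, and looser cell filters left 96. Ikzf2, Lef1, Bach2, Gramd3, Il7r, Cd28, Trac and Prf1 were called in all of the alternative fits that tested them, whereas Gzma and Gzmc were not called by DESeq2 (adjusted p = 0.0529 and 0.24) and Gzmb was not called once doublets were removed. Of 9 alternative fits with a test, 8 did not call Fasl or Zbtb16, 6 did not call Gzmb, 4 did not call Klrc2 or Egr1, 3 did not call Tox, Id2, Hcst or Fos, and 2 did not call Tcf7 or Cd27. Of 8 such fits, 7 did not call Klrb1f and 5 did not call Klri2.

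Other T cells, all cells with a Cd3 UMI, no Ncr1 UMI and outside the rule (788 and 2438 cells), were a mixed comparison. Their median depth was 10443.5 and 9068 UMIs, and their 3 fibroblast markers summed to 4368 and 3459 CPM against 322 and 878 CPM in Ly49+ Cd8- T cells. Their own T cell markers summed to 325 and 331 CPM against 1054 and 873 CPM. Of 14221 genes tested, 1166 (8.2%) were higher and 1373 (9.65%) lower in Ly49+ Cd8- T cells, at a median difference of -0.12 over all genes. Klrb1c, Samd3, Klrc2, Clnk, Cd7 and Klre1 led the higher genes and Penk, Adamts5, Col8a1, Tnfrsf4, Cacna2d1 and Igfbp3 the lower ones. Without cells that held a UMI of Lyz2, Cd79a, Epcam, Col1a1 or Csf3r, 5 and 1 members were left and 9 genes were called. A narrower comparison was therefore added after the data had been seen.

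Lineage-gated T cells are those other T cells with at least 2 Cd3 UMIs, no UMI of Klra1, Klra6 or Klra7, and a UMI of Cd8a, Cd8b1, Cd4 or Foxp3 or at least 2 of Il17a, Il23r and Cd163l1. There were 246 and 752, with median depths of 6525 and 5887 UMIs, and their T cell markers summed to 1482 and 1294 CPM. Against them, Ly49+ Cd8- T cells carried more NK receptors, Helios, the interleukin-12 receptor and Ccl5, and fewer checkpoint and activation transcripts. The comparison cells were selected by genes that the rule holds at 0 or low in the Ly49+ Cd8- T cells, so they include Cd4 and Foxp3 T cells. They also had to lack the Ly49 UMIs that the rule demands. The height of the NK receptor list is thus tied to the choice of cells. Of 10400 genes tested, 247 (2.38%) were higher and 247 (2.38%) were lower.

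Of 17 tested NK receptors and adaptors, 11 were higher in Ly49+ Cd8- T cells and 1 was lower, with a median log2 difference of 1.05 against -0.02 over all genes. The 11 include Tyrobp, with 33.7% of its UMIs in 1 cell of the library labelled KPC-shV. They also include Itga2, with 45.9% of its UMIs in 1 cell of the library labelled KPC-shZEB1. Klrb1c, encoding NK1.1, stood at 87.8 and 64 CPM against 0 and 0.89 CPM. Klrc2, an activating partner of CD94, stood at 176 and 147 CPM against 28.2 and 28.3 CPM (log2 difference 2.54, SE 0.23, adjusted p = 7.4e-05). Klrk1, the gene of NKG2D, stood at 165 and 216 CPM against 41.9 and 38.2 CPM, and Klre1 at 311 and 157 CPM against 83.7 and 65.4 CPM. Ly49-positive Cd8-positive T cells held such transcripts too, with Klrc2 at 93.2 and 82.8 CPM, Klre1 at 163 and 145 CPM and Klrb1c at 58.3 and 10.3 CPM. Il2rb, the beta chain of the interleukin-2 and interleukin-15 receptors, stood at 765 and 619 CPM against 408 and 335 CPM (0.95, SE 0.12), and 95.1% and 94.4% of the Ly49+ Cd8- T cells held a UMI of it. Klrg1, a receptor of terminal effector cells, gave no UMI in either library among 273299 and 796971 UMIs and stood at 14.5 and 14.2 CPM in lineage-gated T cells.

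Ikzf2 stood at 2825 and 2909 CPM against 1252 and 1138 CPM, a log2 difference of 1.32 (SE 0.09, adjusted p = 1.1e-05). Its level was above that of lineage-gated T cells in both libraries. Of 15 tested lineage factors, 6 were higher (Tbx21, Eomes, Runx3, Bach2, Ikzf2 and Lef1) and 5 were lower (Id2, Maf, Gata3, Zeb2 and Tox). Eomes, a T-box factor of memory and NK cells, stood at 40.3 and 36.4 CPM against 13.2 and 8.6 CPM. Tox, a factor of chronically stimulated T cells, stood at 274 and 359 CPM against 804 and 703 CPM (-1.17, SE 0.15). Maf stood at 40.3 and 50.2 CPM against 211 and 172 CPM.

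Of 12 tested checkpoint and activation genes, 6 were lower and none was higher. Pdcd1, encoding PD-1, stood at 7.32 and 13.8 CPM against 176 and 136 CPM (log2 difference -3.57, SE 0.33, adjusted p = 7.3e-05). Ctla4 stood at 84.2 and 89.1 CPM against 460.1 and 399 CPM, Icos at 139 and 109 CPM against 577 and 489 CPM, and Lag3 at 0 and 3.76 CPM against 42.3 and 37.5 CPM. Tnfrsf4, encoding OX40, was found at 0 and 5.02 CPM against 253 and 213 CPM. Each of these receptors was lower in the Ly49+ Cd8- T cells of both libraries. The level of Tnfrsf4 differed among the comparison cells, at 844 and 436 CPM in Foxp3 T cells, 274 and 181 CPM in Cd4 T cells and 52.1 and 60.9 CPM in Ly49-negative Cd8-positive T cells.

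The cytotoxicity and cytokine list split, with 4 of 15 tested genes higher and 4 lower. Ccl5 stood at 1972 and 2191 CPM against 800 and 678 CPM (log2 difference 1.56, SE 0.11), and Ctsw, Fasl and Xcl1 were also higher. Gzma, Gzmk, Prf1 and Ifng were lower, with Prf1 at 18.3 and 17.6 CPM against 103 and 102 CPM and Ifng, encoding interferon-gamma, at 62.2 and 13.8 CPM against 167 and 152 CPM. For Gzma, 5 of the lineage-gated T cells held 84.3% and 40.3% of its UMIs, and the share of cells with a UMI was 17.1% and 7.41% in Ly49+ Cd8- T cells against 8.54% and 12.6%, so by cells the direction turned in the library labelled KPC-shV, with overlapping intervals. Il12rb2, a chain of the interleukin-12 receptor, stood at 670 and 458 CPM against 164 and 127 CPM (1.99, SE 0.14). Ccr7, the lymph node homing receptor, and Cxcr6, a receptor of tissue-resident T cells, were lower, with Ccr7 at 7.32 and 31.4 CPM against 143 and 156 CPM.

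The leading genes outside the lists were Samd3 at 117 and 91.6 CPM against 23.8 and 6.67 CPM, Spry2, a regulator of receptor tyrosine kinase signalling, at 143 and 87.8 CPM against 17.2 and 16.8 CPM, Gm4258 and Slc26a11. The lower ones were Dlg2, Penk, the enkephalin precursor, at 3.66 and 3.76 CPM against 272 and 195 CPM, Gm156, Ccl1 and Itgb8. Id2, Lat, Cd5 and Mki67 were lower as well. DESeq2 called 182 genes and the fit without a library term 177. Klrb1c, Klrc2, Klrk1, Il12rb2, Pdcd1, Lag3, Icos, Tnfrsf4, Prf1 and Ccr7 were called in all of the alternative fits that tested them. Ikzf2 (adjusted p = 0.084) and Ccl5 (0.19) were not called in the fit that left 5 and 1 members, and Lef1 and Tox changed sign there. Klrd1, Klrc1 and Cd160 were not called by DESeq2, and Gzma was not called without the library term (adjusted p = 0.08). Of 8 alternative fits with a test, 5 did not call Tbx21, Runx3, Gata3 or Tyrobp. In 3 of 8, Fasl, Ifng, Mki67, Itga2, Klrd1 or Klrc1 was not called, and in 2 of 8 Eomes, Xcl1, Zeb2 or Cd160. Of 9 such fits, 3 did not call Lef1 or Cd5 and 2 did not call Il2rb or Id2. Of 7 such fits, 4 did not call Gzmk and 3 did not call Klrg1.

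**Figure D2:**
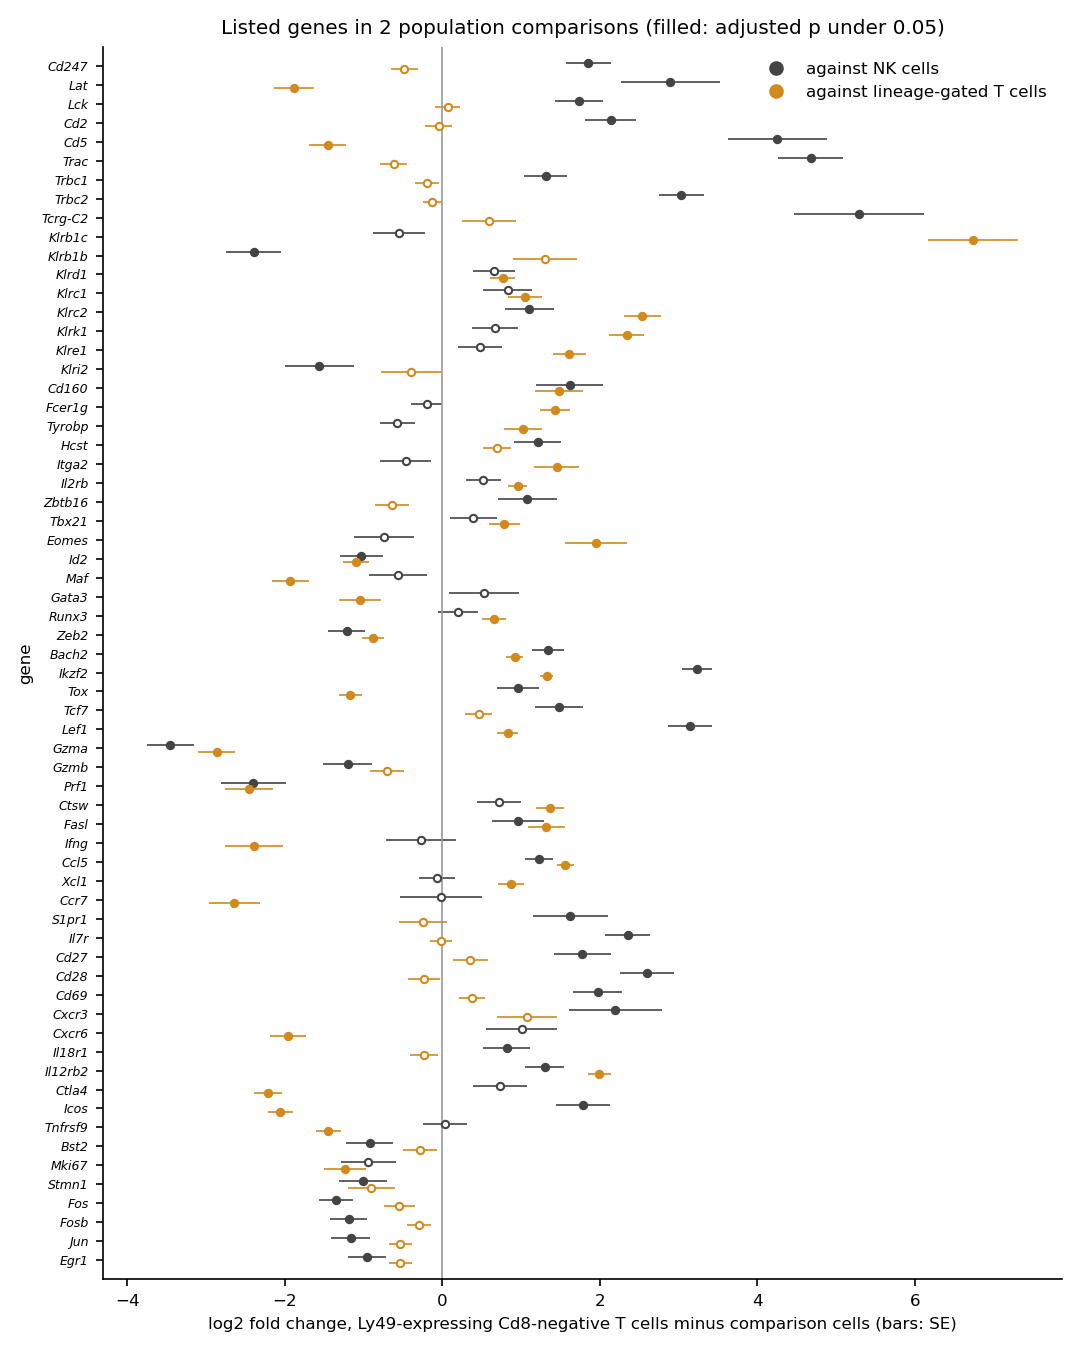
Log2 fold changes of listed genes, Ly49+ Cd8- T cells minus NK cells (dark) and minus lineage-gated T cells (orange), with bars of 1 SE and filled points where the adjusted p was under 0.05. Both comparisons use the same Ly49+ Cd8- T cells. Ikzf2, Lef1 and Bach2 have filled points above 0 in both, and Gzma and Prf1 have filled points below 0 in both.

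The rank of Ikzf2 over populations placed Ly49+ Cd8- T cells beside Foxp3 regulatory T cells and Ly49-positive Cd8-positive T cells. Regulatory T cells with a Foxp3 UMI (31 and 95 cells) held 3705 and 2320 CPM and Ly49-positive Cd8-positive T cells (10 and 19 cells) 3403 and 3445 CPM. Ly49-negative Cd8-positive T cells held 766 and 637 CPM, Cd4 T cells 701 and 475 CPM, T cells with interleukin-17 genes 501 and 250 CPM, and B cells 11 and 25.1 CPM. The first 3 populations lay above all others in both libraries, and their order among themselves differed between libraries. Single cells varied widely. The median Ly49+ Cd8- T cell held 12 and 16 Ikzf2 UMIs, the highest 93 and 73, and 87.8% and 94.4% of cells held at least 1, against 45.1% and 56.8% of NK cells and 5.11% and 10.7% of B cells. Ikzf2 (ENSMUSG00000025997) is a protein-coding gene on the minus strand of chromosome 1 from 69531214 to 69687245 (GRCm38).

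**Figure D3:**
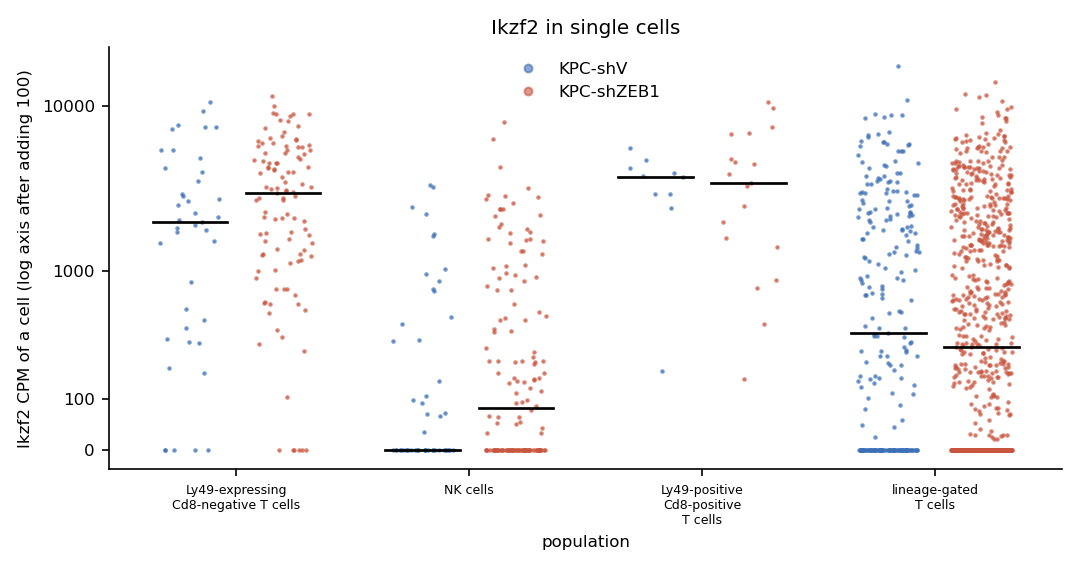
Ikzf2 level of every single cell, as CPM on a log axis after adding 100, in Ly49+ Cd8- T cells, NK cells, Ly49-positive Cd8-positive T cells and lineage-gated T cells of both libraries, with a black bar at the median. Many NK cells and many lineage-gated T cells lie at the floor of the axis. Above it lie 23 of 51 and 83 of 146 NK cells, against 36 of 41 and 102 of 108 Ly49+ Cd8- T cells.

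Bach2 and Lef1 varied over populations in another way. Bach2 was higher in B cells, where it is a well-known repressor, at 1822 and 1592 CPM, than in Ly49+ Cd8- T cells at 1314 and 1252 CPM, and stood at 574 and 599 CPM in Ly49-negative Cd8-positive T cells. Lef1 at 578 and 577 CPM was above Ly49-negative Cd8-positive T cells at 311 and 327 CPM and Cd4 T cells at 173 and 218 CPM. Ccl5 at 1972 and 2191 CPM was below Ly49-positive Cd8-positive T cells, at 3252 and 1169 CPM, under the KPC-shV label and above them under the other.

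**Figure D4:**
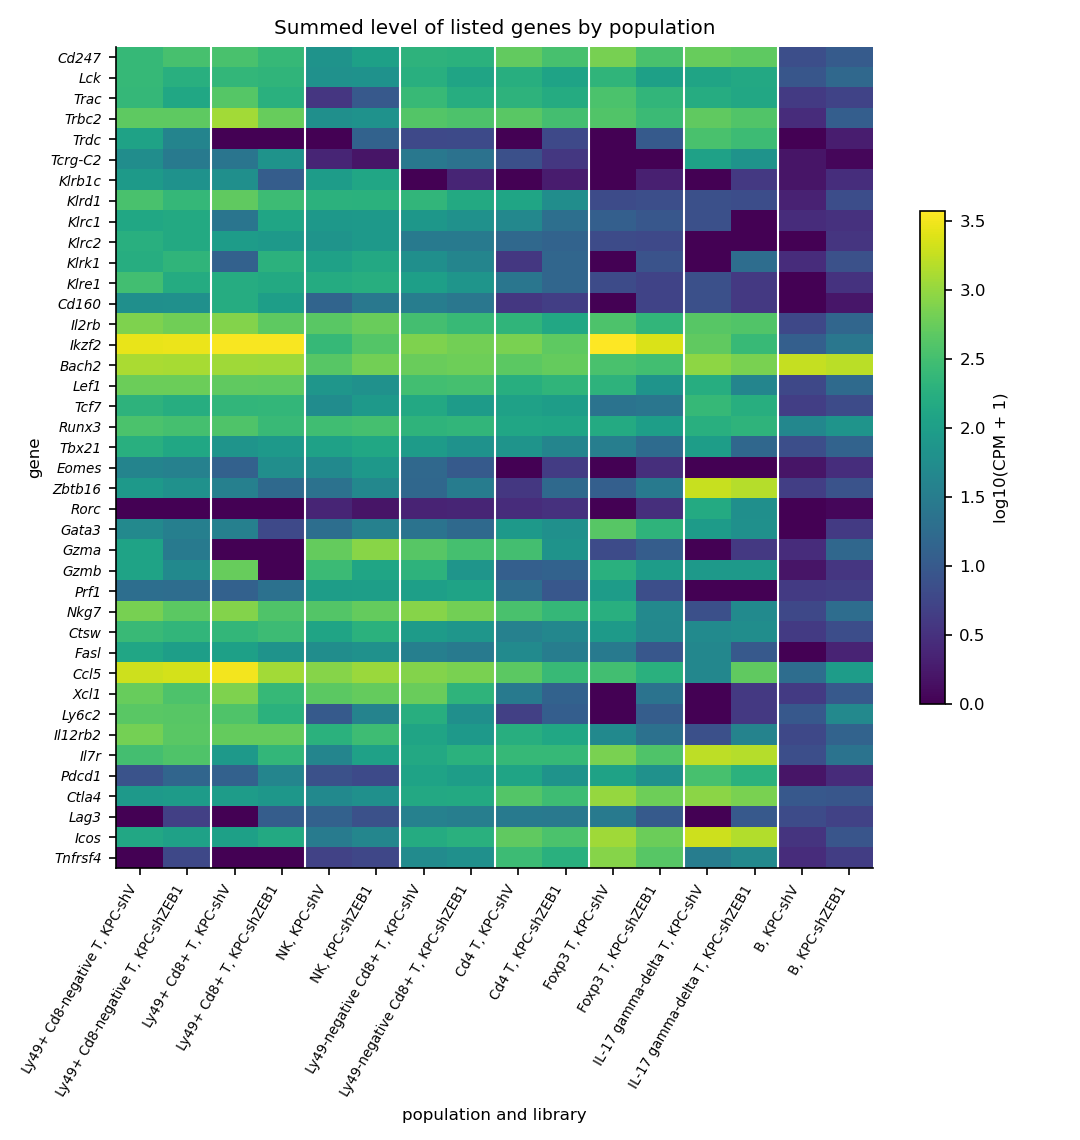
Level of listed genes in each population and library, with colour for log10 of CPM of summed UMIs plus 1 (dark is 0, yellow is highest). Ly49+ Cd8- T cells, Ly49-positive Cd8-positive T cells and Foxp3 T cells have the highest Ikzf2, and NK cells have the highest Gzma of the populations drawn.

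Ly49-positive Cd8-positive T cells met the same criteria apart from at least 1 UMI of Cd8a or Cd8b1. Of their Cd8 UMIs, 1 of 20 (5%) and 5 of 37 (13.5%) came from Cd8b1, the beta chain of the conventional coreceptor, against 42.5% (38.7–46.4) and 43.3% (40.9–45.7) in Ly49-negative Cd8-positive T cells. In 7 of 10 and 11 of 19 of them a single Cd8 UMI placed the cell on this side of the rule. Of 4406 genes tested, none was higher (0%) and none lower (0%) in Ly49+ Cd8- T cells with edgeR's quasi-likelihood test, 269 had an unadjusted p under 0.05, and DESeq2 called 0. Among the genes nearest to the threshold were cell cycle genes, with Mki67 at 32.9 and 72.8 CPM against 128 and 316 CPM (adjusted p = 0.13) and Stmn1 at 58.5 and 141 CPM against 466 and 310.3 CPM (adjusted p = 0.19). Removing doublets brought 29 calls, no filter on low counts 37, 2 Cd3 UMIs 18 and another normalization 15. With 10 and 19 cells on one side, a missed threshold does not show that the populations are alike. On simulated sums of this comparison, 23.2% of genes changed 2-fold and 87.9% of those changed 4-fold were recovered. The changed genes were drawn from those with a mean of at least 50 CPM, and all genes were given the same dispersion. Recovery at lower levels or with a spread that differs by gene was not tested.

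Within the Ly49+ Cd8- T cells, subsets differed in Ikzf2 and Zbtb16, the gene of PLZF, a factor of NKT cells. These subsets were made from values of the same cells and are described with no test. In the library labelled KPC-shV, 11 cells with Klra1 and no Klra7 held Ikzf2 at 1179 CPM (952–1445) and Zbtb16 at 266 CPM (165–407), and 14 cells with Klra7 and no Klra1 held them at 3325 CPM (2967–3714) and 0. In the library labelled KPC-shZEB1 the Ikzf2 order was the same with a smaller gap, 2249 CPM (2001–2518) in 21 cells against 2831 CPM (2624–3050) in 33, while Zbtb16 stood at 97.4 and 81.8 CPM with overlapping intervals. Cells with a Klrb1c UMI (16 and 34) held Tbx21, the gene of T-bet, at 238 and 229 CPM, against 132 and 98.1 CPM in cells without (25 and 74). Ikzf2 in the same split was lower with Klrb1c in one library (1800 against 3647 CPM) and higher in the other (3545 against 2687 CPM).

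By the value of summed UMIs, cells with a Trdc UMI were above the rest in Ikzf2 and below it in Lef1 and Trac, with overlapping intervals in the library labelled KPC-shZEB1. The 5 and 13 of them held Ikzf2 at 3939 and 3223 CPM against 2643 and 2879 CPM in cells without one, and Il2rb at 730 and 668 CPM against 770.3 and 614 CPM. By cells, Ikzf2 was detected in 3 of 5 and 13 of 13 of them, against 33 of 36 and 89 of 95 of the rest. Its direction by cells thus turned in the library labelled KPC-shV. Lef1 was at 104 and 446 CPM against 655 and 589 CPM, and Trac at 52.2 and 74.3 CPM against 264 and 140 CPM. In the cells with Trdc these levels rest on 4 and 30 UMIs of Lef1 and 2 and 5 UMIs of Trac. The intervals under the KPC-shZEB1 label were 2808–3682 against 2758–3005 for Ikzf2, 301–636 against 535–648 for Lef1 and 24.1–173 against 114–170 for Trac. Trbc2 reached 417 and 475 CPM in them, against 494 and 485 CPM in cells without Trdc.

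Of all kept cells, 41 of 11713 (0.35%, 0.251–0.475) were Ly49+ Cd8- T cells under the KPC-shV label, and under the KPC-shZEB1 label they were 108 of 12447 (0.868%, 0.712–1.05). Their ratio was 2.48 (1.72–3.64). Among T cells the share was 4.95% (3.57–6.65) and 4.24% (3.49–5.10), a ratio of 0.858 (0.594–1.26). Set against lineage-gated T cells the ratio was 0.879 (0.608–1.29), and with members and NK cells together as the denominator 0.954 (0.66–1.40). The population was thus a larger share of all cells in 1 library, and the interval of its ratio among T cells included 1. Among cells other than granulocytes the ratio was 1.69 (1.17–2.49). After every cell was thinned to 1000 UMIs, 8 and 22 cells met the rule, a ratio of 2.59 (1.11–6.72) among all kept cells. With 1 tumour per group, mouse and hairpin cannot be told apart.

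In these counts Zeb1, the targeted gene, stood higher rather than lower under the KPC-shZEB1 label. Cells with an Epcam UMI and at least 5 Krt8 or Krt18 UMIs held 156 and 192 CPM, a ratio of 1.23 (1.18–1.27), and Ly49+ Cd8- T cells themselves, which carry the host's Zeb1, held 1237 and 1402 CPM, a ratio of 1.13 (1.00–1.28). All kept cells held 206 and 290 CPM, a ratio of 1.41 (1.38–1.43). The epithelial gate leaves out tumour cells without an Epcam UMI, and RNA of other cells in the gated ones was not tested. These counts therefore cannot tell how far Zeb1 was knocked down in tumour cells. The paper shows its own check of the knockdown in KPC cells and Zeb1 staining of tumours. The libraries held 104585208 and 123856076 UMIs in kept cells. They shared 46 barcodes, and 40 were kept in both, and none of the Ly49+ Cd8- T cells carried one. Scrublet scores above 0.2 were found in 4 and 3 of them.

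Between libraries, Ikzf2, Bach2, Lef1 and Ly6c2 stood at close levels, and several other genes that were higher in these cells than in NK cells or lineage-gated T cells did not. The ratio of KPC-shZEB1 to KPC-shV, by the labels, was 1.03 (0.949–1.12) for Ikzf2, 0.953 (0.844–1.08) for Bach2, 0.998 (0.832–1.20) for Lef1 and 0.974 (0.791–1.20) for Ly6c2. Ratios below 1 were found for Trac at 0.573 (0.417–0.794), Cd28 at 0.506 (0.366–0.705), Klre1 at 0.504 (0.38–0.672), Tyrobp, a signalling adaptor of NK receptors, at 0.529 (0.436–0.644), Klrd1, encoding CD94, at 0.679 (0.528–0.877), Il12rb2 at 0.684 (0.571–0.821) and Xcl1 at 0.69 (0.565–0.846). Il2rb was at 0.809 (0.687–0.956) and Ccl5 at 1.11 (1.01–1.23). Some of these shifts were not particular to the Ly49+ Cd8- T cells. Trac stood at 311 and 252 CPM in lineage-gated T cells and at 420 and 186 CPM in Ly49-positive Cd8-positive T cells. Klre1 stood at 83.7 and 65.4 CPM and at 163 and 145 CPM in them. In NK cells both went the other way, with Trac at 2.66 and 9.04 CPM and Klre1 at 155 and 171 CPM. For Tyrobp, 1 cell held 33.7% of the UMIs in the library labelled KPC-shV, and that cell also held 139 Lyz2 UMIs. Without each library's highest cell, the Tyrobp ratio was 0.627 (0.499–0.791). With no replicate, these ratios compare 2 libraries and carry no test.

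Of 4255 genes with at least 50 CPM in 1 of the libraries, 295 (6.93%) were at least 2-fold higher and 137 (3.22%) at least 2-fold lower in the library labelled KPC-shZEB1, at a median log2 ratio of -0.02. With the mean of single-cell CPM in place of summed UMIs, in which deep cells weigh no more than others, 179 were higher and 142 lower. Of the listed genes, Trdc, Tcrg-C1, Klra5, Cd244a, Gzma, Gzmb and Ifng were among the lower ones and S1pr1, Mki67, Top2a, Stmn1 and Fos among the higher ones. Trdc stood at 113 and 40.1 CPM (ratio 0.354, 0.209–0.6) and was detected in 12.2% and 12% of the cells, or in 9.76% and 2.78% once all cells had been sampled down to 1000 UMIs. Tcrg-C1 stood at 54.9 and 8.78 CPM. It was also lower under the KPC-shZEB1 label in T cells with interleukin-17 genes (260 and 103 CPM) and in lineage-gated T cells (20.7 and 8.45 CPM). In Ly49-negative Cd8-positive T cells (3.91 and 4.89 CPM) and NK cells (1.33 and 6.63 CPM) it was not. Gzma stood at 117 and 28.9 CPM (ratio 0.246, 0.138–0.435), with 65.6% and 52.2% of its UMIs in 1 cell of each library, and Ifng at 62.2 and 13.8 CPM (0.222, 0.094–0.502).

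By summed UMIs, 3 of 4 cell cycle genes past the level minimum were at least 2-fold higher in the library labelled KPC-shZEB1, while the share of cells with a UMI was 17.1% and 11.1% for Mki67, 22% and 20.4% for Top2a and 26.8% and 32.4% for Stmn1. Top2a, a replication topoisomerase, stood at 32.9 and 105 CPM (ratio 3.20, 1.61–7.24), Mki67 at 32.9 and 72.8 CPM (2.21, 1.09–5.07) and Stmn1 at 58.5 and 141 CPM (2.40, 1.42–4.34). UMIs of Mki67 were found in 7 and 12 cells, and 1 cell held 32.8% of them in the library labelled KPC-shZEB1, where 5 cells held 87.9%. In that library 32.1% of Top2a and 26.8% of Stmn1 UMIs lay in 1 cell of 56858 UMIs, which also held Krt8 and Tff2 UMIs. Without each library's highest cell, the ratio was 1.96 (0.864–5.18) for Mki67, 2.58 (1.22–6.26) for Top2a and 2.20 (1.22–4.31) for Stmn1. S1pr1, a receptor for exit from tissue, stood at 22 and 59 CPM (2.69, 1.15–7.69) in 5 and 23 cells. Fos stood at 267 and 654 CPM, with 33.6% of its UMIs in 1 cell of the library labelled KPC-shZEB1.

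The extremes of the ratio rested on few cells. The highest were Ccl17, Tff2, Htr7, Try4, Anxa10 and Tgfb2, each with 0 UMIs in the library labelled KPC-shV. For Ccl17, a chemokine of dendritic cells, at 162 CPM, 1 cell held 83.7% of the UMIs, and for Tff2, an epithelial trefoil peptide, at 123 CPM, 1 cell held 90.8%. The deepest Ly49+ Cd8- T cell of that library, with 56858 UMIs, held 89 Tff2 and 178 Krt8 UMIs. Try4, a pancreatic trypsinogen, was spread over 30 cells at 65.3 CPM, and the 4 acinar markers summed to 36.6 and 249.7 CPM in these cells and to 31.9 and 243 CPM in NK cells. The lowest were Adamdec1, whose UMIs lay in 1 cell of each library, Mmp13, with 90% of its UMIs in 1 cell of the library labelled KPC-shV, Cxcl3 at 241 and 30.1 CPM (a log2 ratio of -2.96, or -0.97 once doublets were removed), Cstdc4, Tcrg-C1 and Slfn4. The 7 granulocyte markers, whose S100a8 and S100a9 the rule limits, summed to 1939 and 872 CPM in these cells, and Cxcl3 and Slfn4 are genes of myeloid cells. The part of other cells' RNA in these ratios was not tested. Without each gene's highest cell in each library, 242 genes were higher and 59 lower of 3718, and without the deepest cell 285 and 133 of 4132.

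**Figure D5:**
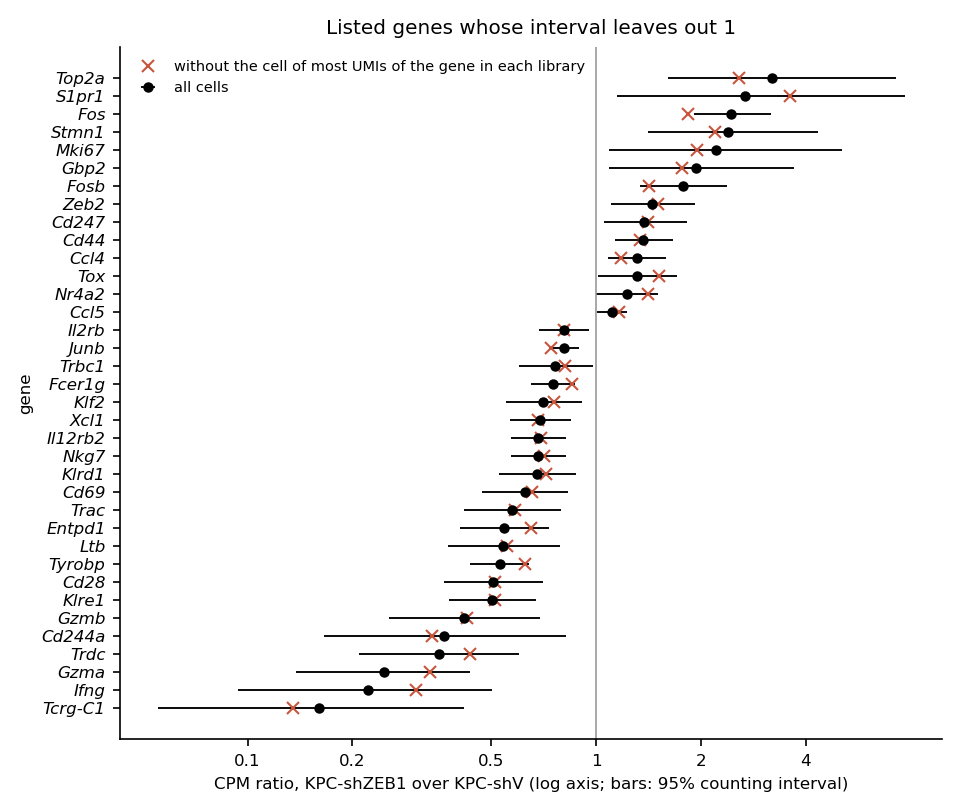
Ratio of CPM in Ly49+ Cd8- T cells, KPC-shZEB1 over KPC-shV by the labels, on a log axis, for listed genes whose 95% counting interval (bars) leaves out 1. Crosses give the ratio without the cell that holds most UMIs of the gene in each library. Top2a, S1pr1 and Fos lie above 1 and Gzma, Ifng and Tcrg-C1 below 1 with and without those cells.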

How the data were processed

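The authors aligned and counted the reads with Cell Ranger 7.0.1 against mm10, per the submitters' processing notes, and deposited filtered matrices of raw UMI counts per gene and barcode from 10x 3′ libraries. Whether intron reads were counted is not given in the sources used here. The 2 libraries held 130941086 and 143461224 UMIs in 12594 and 13271 barcodes. Cells were filtered on genes, UMIs and mitochondrial share as stated above. Scrublet (scanpy 1.11.5) gave each cell a doublet score within its library, no cell was removed for it in the main results, and cells scoring above 0.2 were removed as an alternative. The members, gene lists and populations were chosen with earlier results of these data known.

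UMIs were summed per library and population and tested with edgeR 4.0.16 (quasi-likelihood test, TMM factors, filterByExpr, a library term, Benjamini-Hochberg adjusted p under 0.05). The genes of the rule, Ly6c2, Trdc, Tcrg-C4 and the Klra family were not tested. The standard error is the log2 fold change divided by the square root of the F statistic. Tested on simulated sums for the comparison with NK cells, the fit recovered 38% of genes changed 2-fold and 97% of those changed 4-fold. In these simulations the changed genes had a mean of at least 50 CPM and all genes had the same dispersion. Ratios between libraries carry exact intervals conditional on the sum of the counts, shares carry Clopper-Pearson intervals and levels Poisson intervals, all at 95%.

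Named genes are the listed genes (T cell and receptor chains, Ly49 family, NK receptors and adaptors, lineage factors, cytotoxicity and cytokines, naive, memory and traffic, checkpoint and activation, type I interferon, cell cycle, dissociation and stress) and, per comparison, the 6 largest and 6 smallest changes with at least 50 CPM. Genes shown in other places were chosen after their values were seen. A few genes that the rule named are not reported here. Identifiers of 32158 of 32285 genes matched the GENCODE annotation of GRCm38. Alternatives were doublet removal, higher Cd3 or Ly49 minimums, no UMI of other lineages, looser cell filters, DESeq2 1.42.0, no filter on low counts, RLE factors, no library term, all populations in 1 fit, single libraries, thinning, other denominators, a minimum of 100 CPM and mean single-cell CPM. The lineage-gated T cells, the denominators of lineage-gated T cells and of NK cells, and the values without single cells were added after the data had been seen.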

Additional observations from a re-analysis of the deposited data

How the results depend on the processing

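The main counts of called genes were 984 against NK cells, 2539 against other T cells, 494 against lineage-gated T cells and 0 against Ly49-positive Cd8-positive T cells, and the cause of each shift below was not tested except where cells or genes were lost. Doublet removal gave 516 genes against NK cells and 29 against Ly49-positive Cd8-positive T cells. At least 2 Cd3 UMIs gave 1097 against other T cells and 18 against Ly49-positive Cd8-positive T cells. At least 3 Ly49 UMIs gave 331 against NK cells, 212 against lineage-gated T cells and 1 against Ly49-positive Cd8-positive T cells. Looser cell filters gave 96 and 270 against NK cells and lineage-gated T cells. DESeq2 gave 186, 973 and 182 against NK cells, other T cells and lineage-gated T cells. No filter on low counts gave 776 against lineage-gated T cells and 37 against Ly49-positive Cd8-positive T cells, where RLE factors gave 15. Without a library term, 424 were called against NK cells and 177 against lineage-gated T cells, and with all populations in 1 fit 572 against NK cells.

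Demanding no UMI of Lyz2, Cd79a, Epcam, Col1a1 or Csf3r left 5 and 1 members and no NK cell in the library labelled KPC-shZEB1. The comparisons with NK cells and with Ly49-positive Cd8-positive T cells could not be fitted. The others called 9 genes each, the log2 difference to lineage-gated T cells turned to -2.36 for Lef1 and 0.61 for Tox, and the ratio of shares between libraries was 0.188 among kept cells and 0.293 among T cells. Of the 432 genes past 2-fold between libraries, a minimum of 100 CPM left 142, and that setting on other lineages gave 3563. The share ratio among cells other than granulocytes was 1.69. Within single libraries, 980 to 981 of the 984 genes kept their direction, 2526 to 2536 of 2539 and 491 to 494 of 494. These genes were called on the same 2 libraries, so that outcome was largely fixed in advance and adds no support. Of 1200 values of named genes in the population comparisons under an alternative, 1007 were counted as kept, 169 no longer passed the threshold, 22 had no test and moved, and 2 reversed. A value with a test was kept when its direction and side of the threshold stayed. Values of single libraries have no test and were kept when the log2 change held its sign and moved by under 1. The 1007 therefore include values without a threshold to pass. Depth limits levels below about 3 UMIs per population, and no alternative replaces a second tumour per group.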

Other observations

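Against NK cells, 1 of 9 tested checkpoint and activation genes was higher in the Ly49+ Cd8- T cells (Icos, at 139 and 109 CPM against 29.2 and 42.8 CPM), 1 of 6 interferon response genes was lower (Bst2) and 1 of 8 cell cycle genes was lower (Stmn1, not called in 6 of 9 alternative fits, as was Bst2), at a median log2 difference of -0.73 over the cell cycle list against 0.00 over all genes. The dissociation and stress list had 4 of 9 genes lower, at a median log2 difference of -0.83. Against lineage-gated T cells, none of the 9 dissociation and stress genes was called, 1 of 8 cell cycle genes was lower (Mki67) at a list median of -1.04, and of 10 T cell and receptor chain genes 2 were lower (Lat and Cd5). The alpha and beta chain genes did not pass the test there in either direction, at a list median of -0.16 against -0.02 over all genes.

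Against the mixed other T cells, 13 of 18 NK receptors and adaptors, 9 of 18 lineage factors, 11 of 17 naive, memory and traffic genes and 7 of 18 cytotoxicity and cytokine genes were higher, and 7 of 9 dissociation and stress genes were lower. UMIs of markers of other lineages were present in the Ly49+ Cd8- T cells, and some of their sums reached or passed that of the 5 T cell markers, at 1054 and 873 CPM. The 6 monocyte or macrophage markers summed to 2795 and 3951 CPM, against 1463 and 4715 CPM in lineage-gated T cells, and the 7 granulocyte markers to 1939 and 872 CPM against 1379 and 787 CPM. The part of that RNA in the results was not tested. The 5 B cell markers summed to 51.2 and 43.9 CPM, with Cd79b at 0 in the library labelled KPC-shV and Ms4a1 at 0 in the other. The 3 endothelial markers summed to 95.1 and 121 CPM with Cdh5 at 0 in both. The 5 dendritic markers summed to 743 and 1857 CPM with Xcr1 at 0 in both, and the 4 markers of group 2 innate lymphoid cells to 220 and 263 CPM, against 1293 and 1023 CPM in lineage-gated T cells.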
